A study of Mus musculus with 4 samples.

Results

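The genes described here are Pou5f1, which encodes OCT4, and 9 other genes of early pluripotency: Fgf4, Nr0b1, L1td1, Zfp42, Tdgf1, Nanog, Zfp296, Esrrb and Lin28a. They were selected by symbol, with their values in these libraries already known, and all 10 were found among the 27597 genes listed in at least 1 of the 3 deposited tables. RNA was sequenced from mouse embryonic fibroblasts, isolated at the age labelled D13.5 from skin whose epidermis had been removed, of the strain labelled OGXICR. All 4 groups received doxycycline-inducible lentivirus. It carried no factor (empty vector), SOX2, KLF4 and c-MYC (SKM), those 3 with OCT4 (OSKM) or those 3 with GATA3 (G3SKM). The time between infection and RNA extraction is not given in the sources used here. Each group has 1 value per gene that stands for 2 replicates combined, so there is no spread between replicates, no test was possible, and every difference is a difference between libraries.

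OCT4 is a POU-domain transcription factor of the inner cell mass, embryonic stem cells and germ cells. With its partner SOX2 it binds paired DNA motifs near genes such as Fgf4, Nanog, Utf1 and its own gene. These genes are largely silent in fibroblasts, and in reprogramming the endogenous pluripotency network is known to be switched on late and in few cells. In RNA from whole cultures, a small number of cells with much of a transcript and many cells with little of it cannot be told apart.

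Promoter sequences of 4 of the genes are shown because these genes differ in how their level varied over the factor sets. Fgf4 and Nr0b1 had the largest folds between OSKM and SKM among the 10 genes, Zfp42 was low in every library, and Nanog differed least between OSKM and G3SKM. Each is the 250 bases before a transcription start in RefSeq, build GRCm38.p6, 5′ to 3′ on the strand of the gene, and capitals mark matches to the OCT4 octamer ATGCAAAT or the SOX motif CATTGT on either strand. The deposited values refer to mm9, an earlier build, and hold no coordinates. All 10 genes had a window in that table.
Fgf4, chr7:144861136-144861385, plus strand: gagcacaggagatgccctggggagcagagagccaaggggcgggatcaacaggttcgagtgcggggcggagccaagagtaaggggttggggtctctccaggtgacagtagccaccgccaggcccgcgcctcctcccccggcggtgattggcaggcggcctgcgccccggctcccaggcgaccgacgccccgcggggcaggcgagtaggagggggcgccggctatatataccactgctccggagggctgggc
Nr0b1, chrX:86191525-86191774, plus strand: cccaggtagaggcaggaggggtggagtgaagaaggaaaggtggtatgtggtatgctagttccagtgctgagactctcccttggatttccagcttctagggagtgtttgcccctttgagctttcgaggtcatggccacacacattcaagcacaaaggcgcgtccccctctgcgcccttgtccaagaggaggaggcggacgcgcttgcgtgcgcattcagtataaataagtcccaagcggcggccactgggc
Zfp42, chr8:43307010-43307259, minus strand: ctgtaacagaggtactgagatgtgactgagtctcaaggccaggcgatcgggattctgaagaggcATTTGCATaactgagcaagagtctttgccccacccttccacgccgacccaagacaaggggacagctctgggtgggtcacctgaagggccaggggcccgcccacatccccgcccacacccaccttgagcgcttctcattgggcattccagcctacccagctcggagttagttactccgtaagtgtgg
Nanog, chr6:122707239-122707488, plus strand: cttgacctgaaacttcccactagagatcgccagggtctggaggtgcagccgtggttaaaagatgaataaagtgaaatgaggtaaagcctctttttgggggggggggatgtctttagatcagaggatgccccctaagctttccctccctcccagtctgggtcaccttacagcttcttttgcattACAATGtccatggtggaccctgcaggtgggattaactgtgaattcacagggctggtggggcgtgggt
The octamer was present in the windows of 2 of the 10 genes, Zfp42 and Zfp296, and in windows of 1.81% of 27025 genes (1.6% of 32851 windows of the same length). The SOX motif stood in windows of 3 genes, Pou5f1, Nanog and Lin28a, against 12.2% of genes and 10.7% of windows. Genes with several starts, such as Pou5f1 and Nanog, have more than 1 window in which to match. In Pou5f1 it was before the downstream of 2 annotated starts, and in Nanog the printed match lay at bases -67 to -62 from the start. From another Nanog start the same match lay at bases -143 to -138. Bases just after that other start were found in 2 Nanog transcripts of GENCODE M21. Those after the printed Nanog and Zfp42 starts were found in 0 transcripts of their gene. The composite of both, the SOX motif, 1 base of any kind and then the octamer, which overlaps the matches of each, was in 0 of all 32851 windows. Its absence from the windows of the 10 genes therefore says nothing about them. The printed Nanog match follows ttttgcat after 1 base. That string differs from ATTTGCAT, the octamer on the other strand, only in its first letter. A match is a string of letters and not a binding site, and no match says only that these letters are not in this window.

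The value deposited for a gene is RPKM, reads scaled to gene length and library size. Multiplied by gene span, 74.7% to 76.7% of the values between 1 and 1000 reads came out as whole reads within 0.05, which gave the size of every library, and reads were computed from it for all genes. The depths, rounded, were 111150000 reads for empty vector, 54050000 for SKM, 74740000 for OSKM and 101540000 for G3SKM. For all 10 genes the recovered reads were whole within 0.05 in every library. For Pou5f1, Fgf4, Zfp42 and Tdgf1 this needed a span other than the gene span of GENCODE M21. That of Fgf4 is 17877 bases in M21, and its reads were whole with the 3858 bases of a shorter annotated transcript. That of Pou5f1 is 4755 bases, and 4739 bases, found by a search within 1% for a span that gives whole reads and not from an annotation, was used. Levels are given below as exon-length RPKM, which scales the recovered reads to exon length and library size, because the deposited scale counts introns as length. Intervals are 95% exact Poisson intervals for reads and levels and 95% Clopper-Pearson intervals for folds. Where a gene had no reads, a floor of 3 reads was used. A fold given as at least is the ratio of the other group's reads to this floor. It leaves out the counting error of those reads and is not a 95% bound. Reads copied by PCR are not independent molecules, so the intervals and the floor cover no error beyond counting.

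Pou5f1 bears on the OSKM label only, and its values were known when the genes were selected. Pou5f1 had 0 reads with empty vector, 76 with SKM, 1308 with OSKM and 102 with G3SKM. The library labelled OSKM was the highest by far, and the 2 factor sets without OCT4 were not empty. Its level was 7.78 exon-length RPKM (7.37 to 8.22) in OSKM, 0.625 (0.493 to 0.783) in SKM and 0.447 (0.364 to 0.542) in G3SKM. OSKM was thus 12.4-fold above SKM (9.87 to 15.9) and 17.4-fold above G3SKM (14.2 to 21.5). Against the floor of 3 reads in empty vector, Pou5f1 was at least 52.1-fold higher in SKM, at least 37.2-fold higher in G3SKM and at least 648-fold higher in OSKM. After removal of the trend with GC described below, the first of these was at least 31.8-fold. G3SKM lay 1.40-fold below SKM (1.03 to 1.90), and 1.05-fold below after that removal. In OSKM, delivered and endogenous transcripts both count toward Pou5f1 and cannot be told apart. No transcript of another gene in M21 matched Pou5f1 over 200 bases at 90% identity, and its M21 span overlaps an antisense gene, Gm19553, which the tables do not list.

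The other delivered factors were not at equal levels. Sox2 stood at 187 exon-length RPKM with SKM, 110.4 with OSKM and 70.7 with G3SKM, against 0.258 in empty vector, and its reads were not whole, so these are approximate. Klf4 stood at 33.7, 24.3 and 14.9 in the same order of factor sets, and Myc at 21.9, 19.3 and 11.6. Empty vector had 10.9 for Klf4 and 29.3 for Myc, so that Myc was not above empty vector in any factor set. These levels were not corrected for the trend with GC described below, which sets SKM apart. Every difference of a pluripotency gene between factor sets therefore goes together with a difference in the values of Sox2, Klf4 and Myc. The parts of OCT4 or GATA3 and of these levels cannot be told apart.

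**Figure D1:**
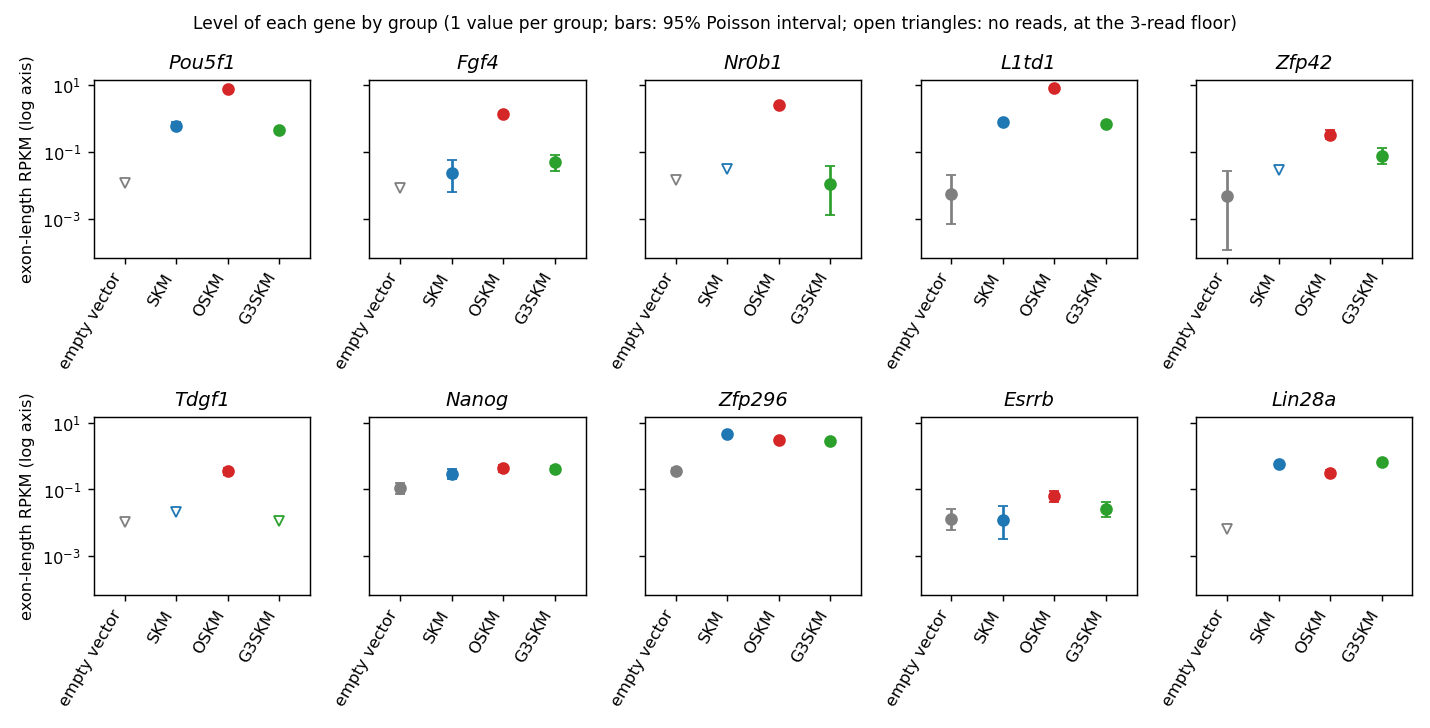
Level of each of the 10 genes in the 4 groups, in exon-length RPKM on a log axis, with 1 value per group. Bars are 95% Poisson intervals and open triangles stand at the floor of 3 reads for groups without reads. Pou5f1, Fgf4, Nr0b1, L1td1, Zfp42 and Tdgf1 have OSKM above all other groups, while Lin28a and Zfp296 do not.

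Above the floor of 3 reads were 3 of the 10 genes in empty vector (Nanog, Zfp296 and Esrrb), 7 in SKM, 8 in G3SKM and all 10 in OSKM. Scaled to library size, the 10 genes together held 1.10 RPM with empty vector, 16.4 with SKM, 12.8 with G3SKM and 62.2 with OSKM. SKM was sequenced least deeply, and its floor is therefore the highest.

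Calls of higher or lower needed reads scaled to library size to differ at least 2-fold between a pair of libraries with at least 10 reads together. In OSKM against SKM all 10 genes had enough reads, and 7 were called higher, Pou5f1, Fgf4, Nr0b1, L1td1, Zfp42, Tdgf1 and Esrrb, with none lower. Over all 20226 genes with enough reads 14.1% were higher and 7.72% lower. The median log2 ratio was 3.43 for the 10 genes and 0.10 for all genes. The genes were chosen for this contrast, so these figures describe them and support nothing. In OSKM against G3SKM, which leaves out the SKM library, the same 7 genes were called higher and Lin28a was lower, where 6.96% and 9.81% of all genes were. Both contrasts contain the OSKM library and are not independent. Nr0b1 and Tdgf1 in both, and Zfp42 in OSKM against SKM, reached 10 reads only through OSKM, so higher was the only call open to them. Fgf4 and Esrrb, with 4 reads each in SKM, also reached 10 reads in OSKM against SKM only through OSKM. A lower call was not open to these genes there.

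Among the secreted and surface proteins, Fgf4 encodes a growth factor that the early embryo makes under joint control of OCT4 and SOX2. It had 0 reads with empty vector, 4 with SKM, 332 with OSKM and 16 with G3SKM, so that nearly every read came from OSKM. The level of 1.39 exon-length RPKM in OSKM was 60.02-fold that in SKM (23.2 to 222) and 28.2-fold that in G3SKM (17.1 to 49.9). G3SKM and SKM differed by 2.13-fold with an interval that includes no change (0.687 to 8.75). Tdgf1 encodes Cripto, the membrane co-receptor of Nodal. It had 68 reads in OSKM and 0 in SKM, and in the other 2 groups it was not listed, which the tables reserve for genes without reads in either column. At 0.347 exon-length RPKM (0.269 to 0.440) it was at least 16.4-fold above SKM and at least 30.8-fold above G3SKM. Tdgf1 has 3 near copies in M21, among them Tdgf1-ps1 with 98.8% identity over 512 bases. The copies have no row in the tables, so reads of theirs counted to Tdgf1 would not show.

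Of the nuclear factors, Nr0b1 encodes DAX1, an orphan nuclear receptor that binds OCT4 in embryonic stem cells. It had 343 reads in OSKM, 2 in G3SKM and 0 in SKM, and was not listed in the table of empty vector. No other group was above the floor. Its OSKM level was 2.54 exon-length RPKM (2.28 to 2.82), at least 82.7-fold above SKM, at least 170-fold above empty vector and 233-fold above G3SKM (64.0 to 1932). Zfp42, the gene of the zinc finger protein REX1 and a marker of naive pluripotency, had 1 read with empty vector, 0 with SKM, 47 with OSKM and 15 with G3SKM. Here G3SKM was above the floor as well, and OSKM was 4.26-fold higher than G3SKM (2.34 to 8.20). Against the floor in SKM, Zfp42 was at least 11.3-fold higher in OSKM and at least 2.66-fold higher in G3SKM. The 15 Zfp42 reads in G3SKM had an interval of 8.40 to 24.7. Its level in OSKM was 0.334 exon-length RPKM (0.246 to 0.445). M21 also holds Zfp42-ps1, 98.1% identical over 266 bases and without a row of its own.

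Esrrb encodes an estrogen-related nuclear receptor that sustains self-renewal of stem cells. It had 9 reads with empty vector, 4 with SKM, 28 with OSKM and 16 with G3SKM, the lowest level of the 10 genes in OSKM at 0.0620 exon-length RPKM (0.0412 to 0.0895). OSKM was 5.06-fold above SKM (1.77 to 19.9) and 2.38-fold above G3SKM (1.24 to 4.70). Empty vector, SKM and G3SKM did not differ beyond counting error. The Esrrb span is 160512 bases, of which 6047 are exon, and reads from introns and exons are not separated in the values.

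L1td1 encodes an RNA-binding protein derived from a LINE-1 element that is found in embryonic stem cells. It had the most reads of the 10 genes in OSKM, with 2 reads with empty vector, 134 with SKM, 1906 with OSKM and 222 with G3SKM. In OSKM it stood at 8.03 exon-length RPKM (7.68 to 8.40), 10.3-fold above SKM (8.63 to 12.3) and 11.7-fold above G3SKM (10.1 to 13.46). SKM and G3SKM did not differ beyond counting error (G3SKM over SKM 0.882-fold, 0.708 to 1.10). In both of them L1td1 was already far above empty vector, 138-fold in SKM (37.4 to 1149) and 122-fold in G3SKM (33.2 to 1010), ratios that rest on 2 reads. A gene of M21, Gm48515, which the tables do not list, matches L1td1 with 91.7% identity over 519 bases.

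Lin28a was the only one of the 10 called lower in OSKM than in another factor set. Its product blocks maturation of the let-7 microRNAs. It had 0 reads with empty vector, 124 with SKM, 92 with OSKM and 265 with G3SKM. All 3 factor sets were above empty vector, at least 85.0-fold with SKM, at least 45.6-fold with OSKM and at least 96.7-fold with G3SKM. OSKM was 2.12-fold below G3SKM (1.67 to 2.72) and 1.86-fold below SKM (1.41 to 2.47), while G3SKM and SKM did not differ beyond counting error (1.14-fold, 0.916 to 1.42). Its paralogue Lin28b had 47 reads with empty vector, 222 with SKM, 655 with OSKM and 772 with G3SKM, and was 2.13-fold higher in OSKM than in SKM (1.83 to 2.50).

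Zfp296 encodes a zinc finger protein that promotes reprogramming and had the highest exon-length level of the 10 in every library without OCT4. It had 83 reads with empty vector, 510 with SKM, 451 with OSKM and 568 with G3SKM, or 0.367, 4.63, 2.96 and 2.75 exon-length RPKM. SKM was 12.6-fold above empty vector (10.0 to 16.1), and 7.26-fold after removal of the trend with GC described below. OSKM lay 1.56-fold below SKM (1.37 to 1.78) and was indistinguishable from G3SKM by counting error (1.08-fold, 0.951 to 1.22). G3SKM lay 1.69-fold below SKM (1.49 to 1.90). After the same removal, OSKM was 1.08-fold and G3SKM 1.19-fold below SKM. Zfp296 overlaps Gemin7 on the other strand, with 263 shared bases at 100% identity between their transcripts. Gemin7 had 8337 reads with empty vector, 3539 with SKM, 4211 with OSKM and 7022 with G3SKM. No source used here says that reads were counted by strand, so some reads of the pair may be shared.

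Nanog, the homeobox gene of naive pluripotency, had 27 reads with empty vector, 35 with SKM, 73 with OSKM and 95 with G3SKM. Its levels were 0.108 exon-length RPKM (0.0714 to 0.158), 0.289 (0.201 to 0.402), 0.436 (0.341 to 0.548) and 0.417 (0.338 to 0.510). The 3 factor sets were 2.67-fold (1.57 to 4.58), 4.02-fold (2.55 to 6.51) and 3.85-fold (2.49 to 6.15) above empty vector. OSKM and G3SKM differed by 1.04-fold (0.759 to 1.43), so no excess with OCT4 was detectable at this depth. OSKM was 1.51-fold above SKM with an interval that includes no change (0.995 to 2.33). The Nanog transcript shares stretches of at least 200 bases at 90% identity or more with 41 other genes in M21, Nanog-ps1 and several abundant genes such as Rrm2b and Eprs among them. How reads that fit several places were counted is not given in the sources used here, and the Nanog values are uncertain for that reason.

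**Figure D2:**
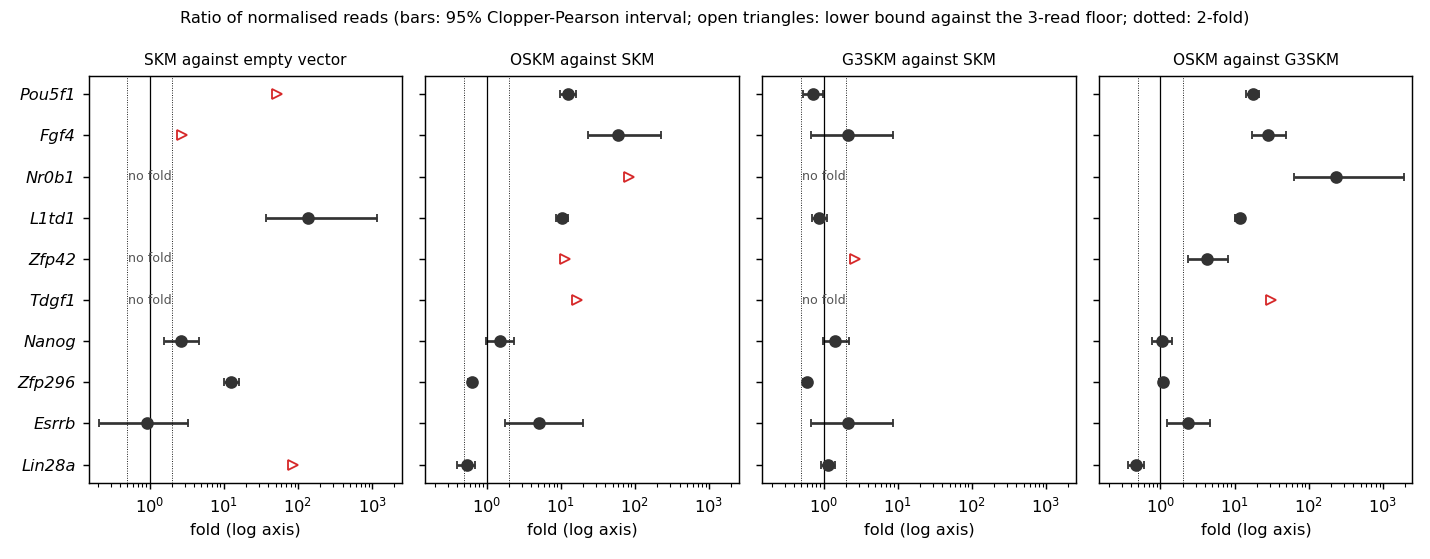
Ratio of reads scaled to library size for the 10 genes in 4 comparisons, on a log axis. Points carry 95% Clopper-Pearson intervals, and open triangles are ratios to the floor of 3 reads, without an interval. Dotted lines mark 2-fold, and genes at or under the floor in both libraries have no fold. OSKM is above both SKM and G3SKM for 7 genes, while in G3SKM against SKM, of the 8 genes with a fold, Pou5f1, L1td1, Nanog and Lin28a lie within 1.5-fold of 1.

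SKM against empty vector asks what the 3 shared factors did without OCT4. Enough reads were present for 6 of the 10 genes, and 5 were called higher, Pou5f1, L1td1, Nanog, Zfp296 and Lin28a, with none lower. Of all 20095 genes with enough reads, 23% were higher and 13.6% lower, so 62.8% of the calls were higher. With ratios centred on the median of all genes that split was 50.7%, and it went from 75.4% to 59.6% in G3SKM against empty vector, from 70.8% to 55.2% in OSKM against empty vector and from 77.8% to 65.3% in G3SKM against SKM. G3SKM against empty vector called 7 of 8 higher, the same 5 with Fgf4 and Zfp42, and none lower, where 25.9% of all genes were higher and 8.43% lower. In OSKM against empty vector all 10 were higher, beside 22.8% of all genes, and none lower, beside 9.43%. These 3 contrasts share the empty vector library. With at most 2 reads there, Pou5f1, L1td1 and Lin28a reached 10 reads only through the factor set in all 3, so higher was the only call open to them. The same holds for Fgf4 and Zfp42 in G3SKM and OSKM, and for Nr0b1 and Tdgf1 in OSKM. The shares over all genes carry no such choice of members.

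G3SKM against SKM compares libraries with and without GATA3, which also differ in the values of Sox2, Klf4 and Myc. The parts of GATA3, of these values and of the trend with GC described below cannot be told apart. Here the 10 genes had no common direction. Of 8 with enough reads, 3 were called higher, Fgf4, Esrrb and Zfp42, beside 13.52% of all genes, and none lower, beside 3.85%. Fgf4 and Esrrb had the same reads, 16 against 4, and the same fold of 2.13 with an interval that includes no change, and Zfp42 had 15 reads against 0. With at most 4 reads in SKM, these genes reached enough reads only through G3SKM, so a lower call was not open to them. Nr0b1 had 2 reads and Tdgf1 none, both under the floor. L1td1, Nanog and Lin28a did not differ beyond counting error. With ratios centred on the median of all genes, Zfp42 alone was called higher. The contrast shares the SKM library with OSKM against SKM.

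The 10 genes did not keep a constant proportion to Pou5f1. Per 100 Pou5f1 reads, OSKM held 26.2 reads of Nr0b1 (23.2 to 29.6), against 1.96 in G3SKM (0.234 to 7.27) and 0 in SKM, where the interval ends at 4.97. For Fgf4 the same ratio was 25.4 in OSKM (22.4 to 28.7), 15.7 in G3SKM (8.64 to 26.7) and 5.26 in SKM (1.40 to 14.0). L1td1 stayed nearer to a constant proportion, with 146 in OSKM (136 to 156), 176 in SKM (132 to 237) and 218 in G3SKM (171 to 278). Lin28a had 7.03 in OSKM, 163 in SKM and 260 in G3SKM.

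By exon length, L1td1 and Pou5f1 led in OSKM with overlapping intervals, followed by Zfp296 and then Nr0b1, whose intervals also overlap (2.70 to 3.25 and 2.28 to 2.82), and by Fgf4. That tie depends on the length used: scaled to the longest transcript, OSKM had 12.8 RPKM for Pou5f1 and 8.67 for L1td1, and the deposited RPKM were 3.69 and 2.17. Nanog, Zfp42, Tdgf1 and Lin28a lay together between 0.308 and 0.436 exon-length RPKM, with overlapping intervals, and Esrrb was last. In SKM and G3SKM the first was Zfp296. L1td1, Pou5f1 and Lin28a came next in both, between 0.447 and 0.781.

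**Figure D3:**
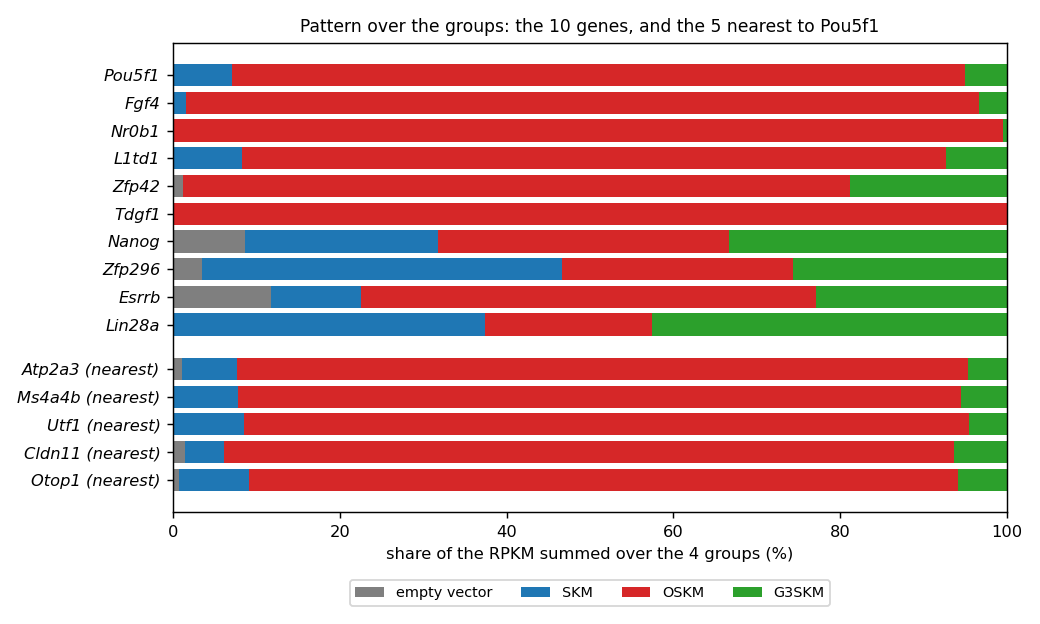
Share of each gene's RPKM, summed over the 4 groups, that came from each group, for the 10 genes and for the 5 protein-coding genes nearest to Pou5f1. OSKM holds 87.9% of the sum for Pou5f1 and 100% for Tdgf1, but 20.1% for Lin28a and 27.7% for Zfp296.

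The pattern of Pou5f1 was compared with 15415 other protein-coding genes with at least 50 reads in all, by the distance between the shares that each group holds of the RPKM summed over the 4 groups. Pou5f1 had 7.06% in SKM, 87.9% in OSKM and 5.05% in G3SKM. The nearest were Atp2a3 (distance 0.0119), Ms4a4b (0.0154), Utf1 (0.0171), Cldn11 (0.0300) and Otop1 (0.0334). Utf1 had 0 reads with empty vector, 4 with SKM, 57 with OSKM and 4 with G3SKM, and Atp2a3 had 38, 121, 2216 and 158. L1td1 ranked 13, Fgf4 59, Nr0b1 121, Tdgf1 128, Zfp42 149, Esrrb 431, Nanog 1784, Zfp296 8571 and Lin28a 13490. With 4 values per gene and shares set largely by 1 library, many genes lie close.

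A list of 44 other pluripotency genes gives the surroundings. It was written with earlier results of these data known. In OSKM against SKM, 37 had enough reads, of which 12 were called higher, 2 lower and 23 neither, beside 14.1% higher and 7.72% lower over all genes, with a median log2 ratio of 0.06 beside 0.10 for all genes. Among the largest folds were those of Eras, an embryonic RAS protein (30 reads against 1, 21.7-fold, 3.61 to 885), Sall4, a zinc finger partner of OCT4 (156 against 7, 16.1-fold, 7.64 to 40.7), Gdf3, a TGF-beta ligand (43 against 0, at least 10.4-fold) and Utf1 (10.3-fold, 3.81 to 39.1). Lower were Dnmt3l, a cofactor of DNA methylation (8 against 31, 5.36-fold, 2.41 to 13.49), and Klf2, a KLF4 relative (328 against 539, 2.27-fold, 1.98 to 2.61). In OSKM against G3SKM, 10 of 37 were called higher, these 4 among them, and Dnmt3l alone lower, beside 6.96% higher and 9.81% lower over all genes.

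Some other genes of this list, picked after their values were seen, were at a few reads. Dppa2, Dppa3, Dppa4, Dppa5a, Tcl1, Prdm14 and Nodal had at most 7 reads in any library. Dppa3, also known as Stella, and Prdm14 had 0 reads in OSKM, and Dppa5a had 2. Other genes of the list were not low, among them Tfcp2l1 (554 reads in OSKM), Tdh (429) and Alpl (374). Lefty1, a Nodal inhibitor, had 88 reads with empty vector, 72 with SKM, 63 with OSKM and 110 with G3SKM.

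In SKM against empty vector 33 of the 44 had enough reads, of which 16 were higher, 1 lower and 16 neither, beside 23% and 13.6% of all genes, with a median of 0.94 beside 0.20 for all genes. After Sox2, which was delivered, the largest folds were those of the E-cadherin gene Cdh1 (351-fold, 161 to 960), Tdh, a threonine dehydrogenase of mouse stem cells (118 reads against 1, 243-fold, 42.7 to 9665), the adhesion gene Epcam (38.2-fold, 18.0 to 96.9) and Sall1 (17.5-fold, 12.9 to 24.2). Spp1, the osteopontin gene, was lower (3.06-fold, 2.97 to 3.15). In G3SKM against SKM 1 of 34 was higher, Fbxo15 (2.15-fold, 1.94 to 2.38), and 5 were lower, Nr5a2, Sox2, Klf2, Alpl and Klf5, beside 13.52% higher and 3.85% lower over all genes. Of these, Sox2 was delivered and Nr5a2 had 2 reads against 8. The counts were not corrected for the trend with GC described below.

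Markers of cell types were read over the same libraries. All 12 fibroblast markers had reads in every group, and Col1a1 was the highest, at 851 exon-length RPKM with empty vector, 903 with SKM, 368 with OSKM and 426 with G3SKM. Their summed level, mostly Col1a1, Col1a2 and Vim, was 2092 with empty vector, 1609 with SKM, 913 with OSKM and 914 with G3SKM. In OSKM against empty vector 9 of the 12 were called lower and 2 higher, Dcn (1.71 in empty vector, 8.01 in OSKM) and Lum (1.05 and 3.42 exon-length RPKM). Fetal germ cells are known to express Pou5f1, Nanog and Lin28a. The 10 germ cell markers summed to 3.12 exon-length RPKM with empty vector, 2.30 with SKM, 2.63 with OSKM and 4.20 with G3SKM. The sum was not highest in OSKM, but Ddx4 was, with 88 reads there against 47 with empty vector, 20 with SKM and 83 with G3SKM. Dazl, Mael, Nanos2, Stra8 and Dppa3 had at most 2 reads in OSKM. In the same library Sycp3 had 112, Dnd1 104, Tdrd9 67 and Nanos3 19. The sum with empty vector was mostly Sycp3 (1.79) and Tdrd9 (0.703). The part of germ cells in the levels of Pou5f1, Nanog and Lin28a was not tested. The 8 keratinocyte markers summed to 1.32 with empty vector, 91.3 with SKM, 52.6 with OSKM and 63.3 with G3SKM, with Krt15, Krt1 and Dsg3 at 0 reads in empty vector. The 7 trophoblast markers matched of 8 summed to 0.284, 11.5, 9.95 and 6.998, with Elf5 and Gcm1 at 0 reads in empty vector. In the factor sets each sum was mostly 1 gene, with Krt14 at 84.3 and Hand1 at 11.1 exon-length RPKM in SKM. Some of the other markers did not follow them: Krt10 was at 1.05 in empty vector and between 0.956 and 1.11 in the factor sets, and Prl3d1 at 0.226 and between 0.0423 and 0.0563. Eomes was at 0.0173 in empty vector and lower only in SKM, at 0.00891. It was at 0.0966 in OSKM and 0.0758 in G3SKM. Both sums were higher in the factor sets than in empty vector, as were Pou5f1, L1td1, Zfp296 and Lin28a, and their part in those results was not tested. Macrophage markers went the other way, from 104 to between 4.91 and 12.2, with all 8 above 0 reads in every group. The 5 endothelial markers summed to 0.381, 0.590, 3.27 and 0.896, with Tek, a receptor kinase, at 985 reads in OSKM and none of the 5 at 0. Tek was 2.80 exon-length RPKM of the OSKM sum. Cdh5, Kdr and Tek were highest in OSKM, as were the 7 genes above, while Pecam1 was highest in G3SKM (0.108 against 0.0795 in OSKM) and Emcn in empty vector (0.195 against 0.111), and their part was not tested.

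The SKM library stood apart from the others in how its values followed transcript GC. Across genes, which are not independent replicates, the rank correlation (Spearman) of log2 ratio with GC was 0.39 in SKM against empty vector, -0.57 in OSKM against SKM, -0.59 in G3SKM against SKM and -0.04 in OSKM against G3SKM. After removal of this trend within each comparison, OSKM was above SKM 16.9-fold for Pou5f1, 60.05-fold for Fgf4, 8.48-fold for L1td1 and 6.15-fold for Esrrb, and at least 100.4-fold for Nr0b1, 12.1-fold for Tdgf1 and 8.82-fold for Zfp42. The same 7 genes were called higher. Lin28a, at 2.01-fold below SKM, was then called lower, as it was with ratios centred on the median of all genes, and Nanog stood at 1.12-fold.

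**Figure D4:**
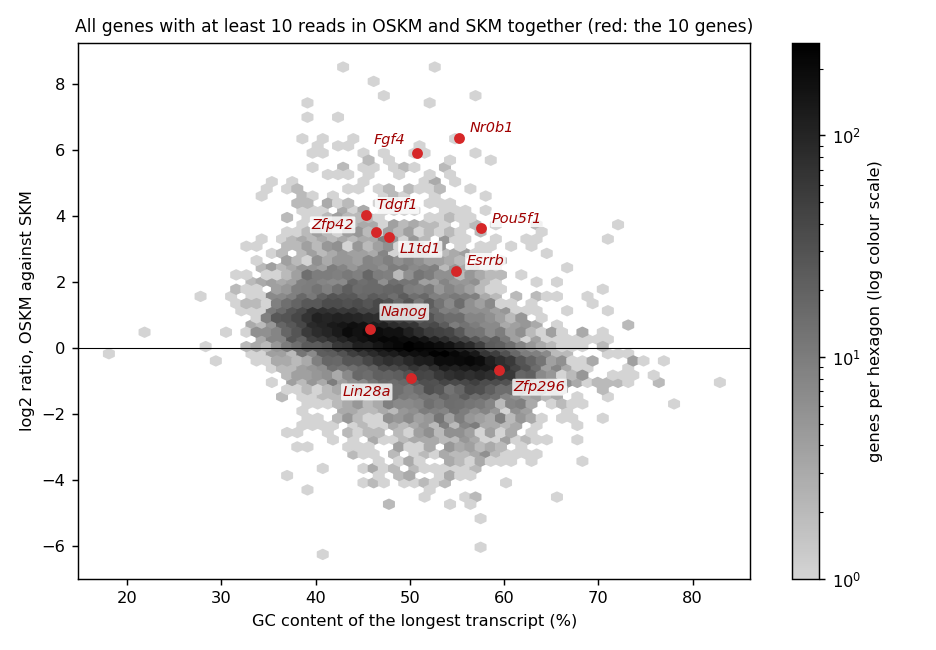
Log2 ratio of OSKM against SKM plotted against the GC content of the longest transcript, for genes with at least 10 reads in the 2 libraries together. Grey hexagons count genes and red points are the 10 genes. The mass of genes slopes downward, Nanog, Zfp296 and Lin28a lie in or near it, and the other 7 lie above it.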

How the data were processed

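The deposited tables give 1 value per gene and group, each of which combines 2 replicates, per the labels. The authors' deposited values are RPKM, with the log2 of their ratio beside them, per the file headers; the log2 columns were not used. TopHat 1.3.0 and build mm9 stand in the submitters' processing notes, while the counter, the annotation and how replicates were combined were not given in the sources used here. Libraries were made from amplified cDNA, per the labels' protocols, which can add to the error of low genes beyond counting. A deposited RPKM of 0.001 was read as no reads. A gene missing from a table was read as 0, since no row has both groups without reads (0 rows) and the SKM column is identical in all 3 tables.

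Symbols, spans, exon lengths and GC came from GENCODE M21, which covers 25103 (91.0%) of 27597 genes. RPKM times span (end minus start) fell within 0.05 of a whole multiple of 1 step per library for 74.7% to 76.7% of genes with 1 to 1000 reads. Where it did not, a transcript or RefSeq span that gave whole reads was used (1504 genes), and for Pou5f1 a span within 1%. Another 1664 genes stayed off whole reads. Genes without an M21 span were left out of counts.

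A call needed a 2-fold ratio of reads scaled to library size and 10 reads in the 2 groups together, with a group at 0 set to 3 reads. The members and lists were chosen with earlier results of these data known. Named genes were all 10 members, the other delivered factors, the 5 largest folds per direction among the other pluripotency genes in OSKM against SKM and SKM against empty vector, and the 5 genes nearest to Pou5f1 (1 gene under this rule is not reported here); Lin28b, Lefty1 and other genes of the lists were named after their values were seen. Alternatives were other read minimums, a 4-fold rule, centring, a trimmed mean, GC removal, RPKM with pseudocounts, exon length and protein-coding genes, and, added after the data were examined, M21 spans throughout. Calls and intervals were also run on simulated reads that varied by counting error only. Such reads cannot show how the calls or intervals hold under variation between replicates, PCR copying or the trend with GC. Scripts ran in Python 3.11.15 with SciPy 1.17.1, numpy 2.4.6, pandas 2.3.3 and matplotlib 3.10.9.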

Additional observations from a re-analysis of the deposited data

How the results depend on the processing

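With 1 value per group, depth limits the low genes, and no replicate could be left out. No paired analysis was possible because each group has a single column that combines its replicates. No log2 ratio of a called gene changed sign under any alternative listed here. With log2 of RPKM + 1, of RPKM + 0.1 or of exon-length RPKM + 1 and a filter at 1 RPKM, which Zfp42, Tdgf1, Nanog, Esrrb and Lin28a do not reach in any library, the genes called higher went from 5 to 1 in SKM against empty vector, from 7 to 4 in OSKM against SKM and in OSKM against G3SKM, from 3 to 0 in G3SKM against SKM, from 10 to 5 in OSKM against empty vector and from 7 to 1 in G3SKM against empty vector, alike under all 3 scales, and the gene called lower in OSKM against G3SKM went from 1 to 0. At least 4-fold gave 0 lower there. In G3SKM against SKM, at least 4-fold and at least 30 reads each gave 0 higher in place of 3. Centring on the median of all genes (0.20, 0.10, 0.13, 0.33, 0.33 and -0.00080 log2 in the 6 comparisons) or scaling by a trimmed mean left 1 of these 3. Centring, the trimmed mean and GC removal each added 1 lower gene in OSKM against SKM, from 0 to 1. Scaling to the longest transcript in place of all exons moved 10 of 31 levels of the 10 genes beyond their counting intervals. Counting any read as detection gave 5 genes in empty vector in place of 3. With M21 spans throughout, Fgf4 gained reads and its ratios to the floor in empty vector rose (log2 3.70 for SKM, 9.58 for OSKM and 4.75 for G3SKM, against 1.46, 7.36 and 2.55). OSKM against SKM was 5.87 in place of 5.91.

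Over all genes, the calls higher and lower in SKM against empty vector, OSKM against SKM, G3SKM against SKM, OSKM against empty vector, G3SKM against empty vector and OSKM against G3SKM were in that order 4620 and 2733, 2860 and 1561, 2791 and 795, 4693 and 1938, 5436 and 1770 and, last, 1465 and 2064. They were 1912 and 727, 877 and 406, 555 and 143, 2267 and 594, 2499 and 475 and, last, 595 and 538 at 4-fold, 824 and 543, 234 and 146, 374 and 97, 436 and 390, 618 and 356 and, last, 67 and 191 with RPKM + 1, 1525 and 998, 563 and 365, 708 and 219, 969 and 662, 1254 and 626 and, last, 162 and 368 with RPKM + 0.1, and 1743 and 1051, 582 and 288, 597 and 152, 1314 and 730, 1511 and 724 and, last, 219 and 281 with exon-length RPKM + 1. GC removal left 1872 higher in OSKM against SKM and 1661 in G3SKM against SKM. The calls lower in G3SKM against empty vector became 2760 after GC removal, 2767 with centring and 2692 with a trimmed mean. Among protein-coding genes 1700 and 517 were called in G3SKM against SKM and 1304 lower in OSKM against G3SKM.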
